A study of Mus musculus with 14 samples.

Results

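The deposited tables of 14 mouse libraries hold, beside the tags that mark transcripts of genes, a second class of tags assigned to the same genes but read here as lying on the opposite strand. A tag is a signature of 20 bases that begins with GATC, the cutting site of the enzyme DpnII. The members described here are the distinct tags whose class code is 11 to 16 and that carry a UniGene id, a cluster of expressed sequences taken as 1 gene, with mitochondrial tags left out. There were 85074 such tags, 5.53% of 1538190 distinct tags, and they held 2026294 of 45337175 counts (4.47%). They belonged to 20100 ids, of which 18652 also had tags of codes 1 to 4, taken as the sense strand, and 1448 had none. The sense side held 87272 tags of 22208 ids with 33243615 counts.

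The libraries came from C57BL6 mice, with 1 female and 1 male library from spinal cord, hippocampus, bone marrow, liver, pancreas, stomach and parotid gland, 7 tissues in all. The labels used here name no treatment, genotype or age, nor how many animals a library stands for, so p-values measure the spread between these libraries. The title of the female liver library names the right lobe and that of the male library the left lobe. What each code means is not given in the sources used here. Reading codes 11 to 16 as the reverse strand is an assumption that was checked against gene sequence for a small part of the tags. Among tags found within the promoter window of their own gene in RefSeq (build GRCm38.p6, 250 bases before to 50 after the gene's start), 220 of 252 tags of codes 11 to 16 lay on the strand opposite to the gene (87.3%), against 59 of 170 tags of codes 1 to 4 (34.7%). By counts, 4510 of 4595 lay opposite for codes 11 to 16 and 745 of 13769 for codes 1 to 4. The check covers 252 of the 85074 reverse tags, and the others were not checked.

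Genes are transcribed from 1 strand into messenger RNA, and RNA from the other strand of the same locus is called antisense. Antisense RNA can come from a gene of its own, from a neighbour that runs past its end, or from transcription that starts in both directions, and some imprinted loci are known for antisense transcripts that silence the other copy. A tag of the reverse strand can also arise when the cDNA copy of a messenger RNA is captured in the wrong direction. In this method the messenger RNA is primed at its poly(A) tail, and the signature is taken beside the DpnII site that lies nearest to it. The tissues differ in what they make: the parotid gland and the pancreas fill most of their RNA with a few secreted proteins, bone marrow makes blood cells, and hippocampus and spinal cord hold neurons and myelinating glia.

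The most abundant reverse tags belonged to genes of secreted proteins, and 4 of them are shown with the most abundant sense tag of the same id, with the DpnII site in capitals. They are from Bpifa2 (parotid secretory protein), Smr3a (a salivary peptide precursor), the salivary amylase Amy1 and the pepsinogen Pgc.
Bpifa2 reverse: GATCcttgtttctctgcacc
Bpifa2 sense: GATCtgacggtgcccttggc
Smr3a reverse: GATCatgtcttctagggcct
Smr3a sense: GATCctagaggaccattccc
Amy1 reverse: GATCcagtcattgccacaag
Amy1 sense: GATCtgtgaacatcgatggc
Pgc reverse: GATCtgccagtaaagctcct
Pgc sense: GATCctcggggatgtcttcc
These reverse tags had 40480, 31892, 28603 and 18516 counts over the 14 libraries. The next 4 sequences are reverse tags of ids whose reverse strand parted from the sense strand in the results that follow: Rnpep, an aminopeptidase, Cela3b, a pancreatic elastase, the id titled beta adult major chain of hemoglobin (Mm.288567), and Ywhag, a 14-3-3 adaptor protein of signalling.
Rnpep reverse: GATCgcaaattcttggacct
Cela3b reverse: GATCtagttgttggcaatgg
beta globin reverse: GATCagcaggcatggtgtca
Ywhag reverse: GATCaatctgttacaatcac

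The 6 letters TTTATT are the reverse complement of AATAAA, the signal that precedes the poly(A) site of most messenger RNA. A tag of the reverse strand that lies over such a signal would carry TTTATT, and the following tags do, with the motif in capitals. They belong to Ywhag, to Oaz1 (a regulator of polyamine synthesis), to Scd2 (a fatty acid desaturase), to the ribosomal protein gene Rpl5 and to Slc25a37 (the mitochondrial iron importer of red cell precursors).
Ywhag reverse, second tag: gatctgtaagTTTATTttgc
Oaz1 reverse: gatcacTTTATTggatttga
Scd2 reverse: gatcatttcatTTTATTatg
Rpl5 reverse: gatcaatatgTTTATTgtct
Slc25a37 reverse: gatcaatgcTTTATTttttc
They had 4240, 3764, 2630, 2030 and 1287 counts. TTTATT, searched on the tag as written, was present in tags with 3.41% of reverse counts and 0.451% of sense counts. By distinct tags the shares were 0.944% of reverse and 0.588% of sense tags, against 0.933% of all tags. The share of reverse counts with the motif ran from 0.435% to 5.29% over the libraries and lay above the sense share in each of the 14. AATAAA itself was in tags with 0.834% of reverse and 2.51% of sense counts.

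Most reverse tags were rare. Of the 85074 tags, 28009 (32.9%) had 1 count in all, the median was 3 counts, and 34748 tags were seen in 1 library only and held 2.22% of the reverse counts. At the other end, 940 tags were present in all 14 libraries and held 19.9% of the counts, and the 1000 most abundant tags held 49.1%. An id had a median of 3 reverse tags and at most 83. Among the 3650 ids with at least 100 reverse counts, the leading tag carried a median of 69.5% of the id's reverse counts. Code 14 held 69.0% of the reverse counts, code 15 held 11.5%, code 12 held 10.3%, and codes 13 and 16 held 4.59% and 4.54%. Reverse tags had 7.39 G or C bases among the 16 after GATC on average, against 7.51 in sense tags, and weighted by counts 6.91 against 7.54. Tags that differ by 1 substitution from a tag at least 100 times as abundant numbered 3136 and held 0.984% of reverse counts.

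Sense levels of marker lists were set against the tissue labels as CPM, counts scaled to a total of 1000000. This total takes in the sense and reverse gene counts and the mitochondrial sense counts of a library. The reverse shares of sense and reverse gene counts given below leave the mitochondrial counts out. Sense counts of 15 pancreatic enzyme ids summed to 460827 CPM in pancreas and to 103161 CPM in stomach, against at most 40.4 CPM in the other tissues. The stomach sum was uneven over ids. The colipase Clps had 80855 CPM in stomach and 32598 CPM in pancreas. The protease ids Prss2, Ctrb1 and Cela2a had 583, 633 and 560 CPM in stomach, against 94602, 141818 and 45965 CPM in pancreas. Parotid secreted proteins stood at 674162 CPM in parotid gland, 12321 CPM in stomach and 1800 CPM in pancreas. Gastric products stood at 173286 ± 104604 CPM (SD, n = 2) in stomach and 34689 CPM in parotid gland, and at most 4.50 CPM elsewhere. Liver plasma proteins had 98214 CPM in liver, 4951 CPM in hippocampus, 2392 CPM in stomach and 1087 CPM in spinal cord. Skeletal muscle genes had 337 CPM in parotid gland, 333 CPM (female) and 651 CPM (male) in spinal cord, and 45.7 CPM and 293 CPM in stomach. The parotid gland had 581 CPM and liver 2413 CPM of adipose genes, a list led by Car3, which liver also makes. Globin and erythroid genes stood at 234310 CPM in bone marrow and 4129 CPM in spinal cord. Pancreas libraries held few of the rarer tags (5827 and 4252 reverse tags, against 14828 to 36396 in the other libraries). Across the 6320 ids abundant enough to be tested, the reverse levels of 13 of the 14 libraries were nearest by Spearman correlation to the other library of their tissue. The exception was the female pancreas, at 0.555 with the female parotid gland and 0.552 with the male pancreas. Same-tissue correlations were 0.722 in stomach and 0.838 in parotid gland, with a median of 0.897 over tissues. Libraries of different tissues reached 0.0812 to 0.799.

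Hippocampus and spinal cord had the highest share of reverse counts. Reverse counts made up 10.6% and 10.4% of sense and reverse gene counts in the female and male hippocampus libraries, and 11.98% and 10.8% in spinal cord. In liver the shares were 5.92% and 4.64%, in bone marrow 4.54% and 4.97%, in parotid gland 4.08% and 4.05%, in stomach 3.66% and 4.27%, and in pancreas 3.04% and 3.00%. The libraries of both nervous tissues lay above all 10 others, and those of spinal cord above those of hippocampus. Liver and bone marrow overlapped, as did parotid gland and stomach, and pancreas lay below all other tissues. As mean ± SD over 2 libraries, the shares ran from 3.02% ± 0.0278 (SD, n = 2) in pancreas to 11.4% ± 0.823 in spinal cord. Libraries of a tissue differed by 0.530 percentage points on average, against a median of 3.94 points over all 135135 ways to pair the libraries (exact permutation test, one-sided p = 0.000155).

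Counting error was small beside these differences: the exact (Clopper-Pearson) 95% interval of the female spinal cord share was 11.94% to 12.03%, on 231576 reverse counts, and such intervals cover counting error only. As a share of all counts of a library, which includes tags without a gene, reverse counts took 6.86% ± 0.0228 (SD, n = 2) in spinal cord, 6.55% in hippocampus and 2.83% in pancreas. In stomach they took 2.46% in the female library and 3.73% in the male one. Males did not differ from females in a constant direction: the share was lower by 0.236 points on average and higher in males in 2 of 7 tissues (exact sign-flip permutation test over 7 pairs, two-sided p = 0.391, where the smallest p possible is 0.0156).

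**Figure D1:**
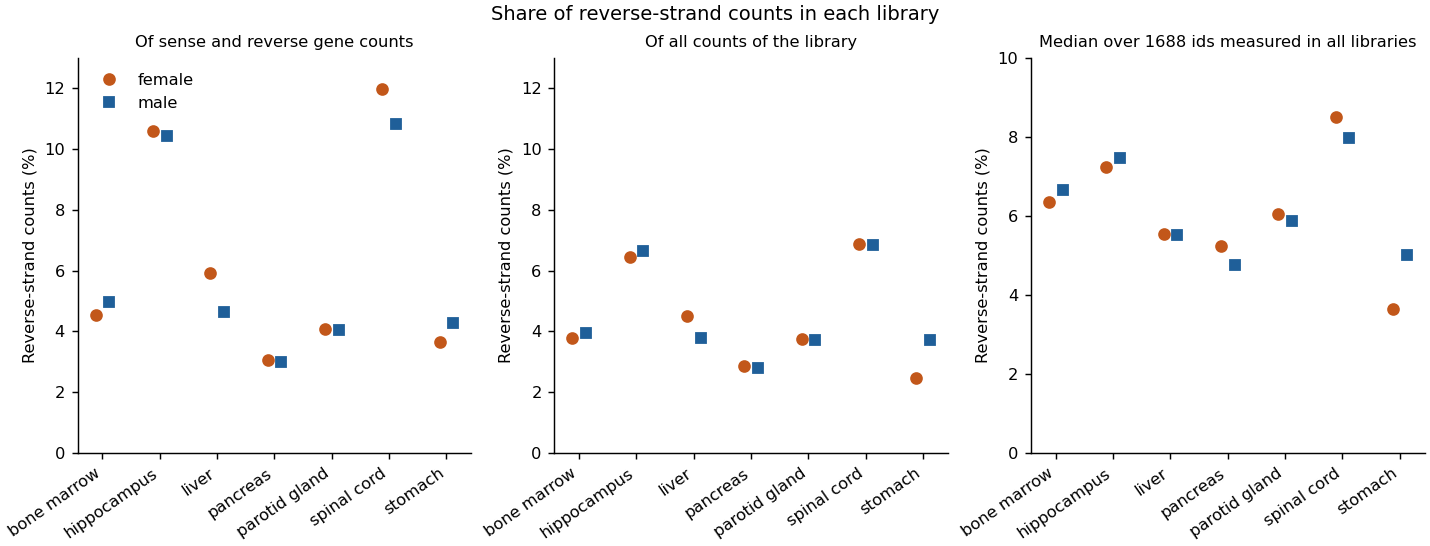
Share of reverse counts in each of the 14 libraries, in percent, of sense and reverse gene counts (left), of all counts (middle) and as the median over 1688 ids present in every library (right); circles are female and squares male libraries. Spinal cord (10.8% to 11.98% on the left) and hippocampus lie highest in all 3 panels. Pancreas (3.00% to 3.04%) lies lowest on the left, and the female stomach library lies lowest in the middle (2.46%) and on the right (3.64%).

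The share pooled over ids was lower where the sense level was higher. Since the sense count is part of the share and also sorts the ids, this is a description. Pooled over ids, those with 1 to 9 sense counts in all libraries together had 52.3% of their counts on the reverse strand. This pooled share went down over each step by a factor of 10 in sense counts to 2.15% in the 28 ids with 100000 or more. By id, the median share was 0% at 1 to 9 sense counts, where 44.1% of 4454 ids had a reverse tag. It was 10.3% at 10 to 99 sense counts and fell from there over each step to 2.50%. By tissue means, hippocampus and spinal cord also led within each range of sense levels. For ids at 10 to 100 sense CPM in a library, the reverse share was 13.5% in spinal cord, 12.8% in hippocampus, 10.3% in bone marrow, 8.88% in liver, 8.04% in parotid gland and 6.91% in stomach, and 5.54% (female) and 13.5% (male) in pancreas. The male pancreas library thus stood above both hippocampus libraries and the male spinal cord library (12.8%) in this range. Most of its 7169 reverse counts there were of a single id, Cela3b, described below. The sense level of Cela3b lay just above 10 CPM in the male pancreas library and just under it in the female one. This id therefore fell in different ranges in these libraries, and the value is not shown to hold for other ids. At 1000 sense CPM and over it was 6.37% in spinal cord, 5.09% in hippocampus, 2.97% in liver, 2.92% in parotid gland, 2.63% in pancreas, 2.42% in stomach and 1.10% in bone marrow.

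**Figure D2:**
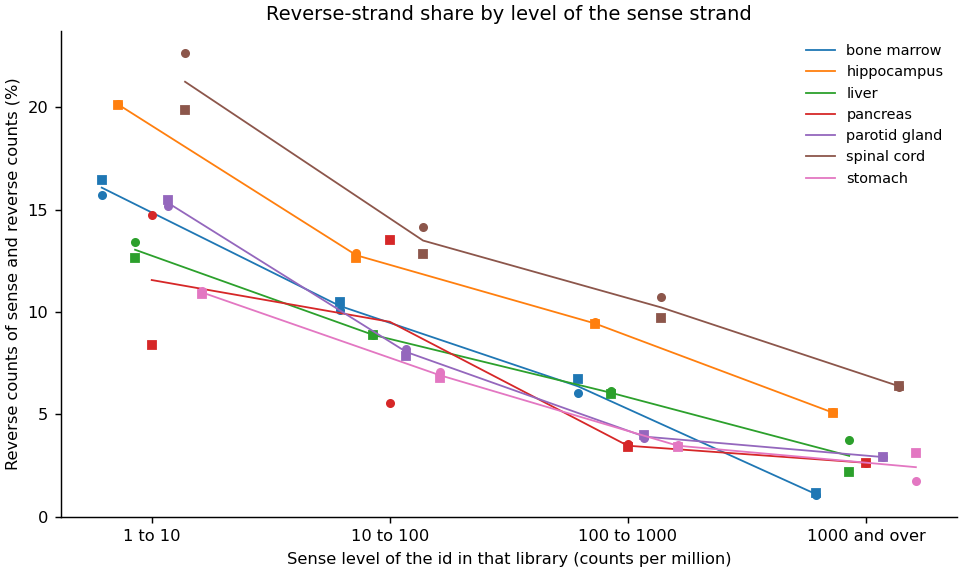
Reverse share in percent by the sense level of the id in the same library, in CPM; lines join the means of the 2 libraries of a tissue, circles are female and squares male libraries. The tissue means fall with the sense level, from 21.2% to 6.37% in spinal cord and from 10.96% to 2.42% in stomach. The male pancreas library goes from 8.395% at 1 to 10 CPM up to 13.5% at 10 to 100 CPM. Most of its reverse counts at 10 to 100 CPM are of a single id, Cela3b, which falls at 1 to 10 CPM in the female library.

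The nervous tissues also led over a fixed set of 1688 ids that had at least 10 sense and reverse counts in each library and at least 20 reverse counts in all. Their median reverse share was 8.24% ± 0.380 (SD, n = 2) in spinal cord, 7.35% ± 0.157 in hippocampus, 6.51% ± 0.223 in bone marrow, 5.97% ± 0.126 in parotid gland, 5.54% ± 0.0176 in liver and 4.995% ± 0.330 in pancreas. In stomach it was 3.64% (female) and 5% (male). Spinal cord and hippocampus were above the other 10 libraries here too. Pancreas and stomach libraries overlapped.

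Among single ids, the reverse strand was usually the minor one. Of 12888 ids with both strands and at least 100 counts in all, the median share was 7.77%, with quartiles of 4.18% and 14.4%. In 236 of these ids (1.83%) the reverse strand held over 50% of the counts, and in 49 over 90%. The tissue with the highest mean reverse level was spinal cord for 83 and hippocampus for 71 of the 236 ids. It was bone marrow for 37, stomach for 19, liver for 17, parotid gland for 6 and pancreas for 3. The same count over all ids is not given here, so this order is not shown to be particular to mostly reverse ids. Ids at both ends were well known genes: Ggta1, a galactosyltransferase of cell surface sugars, had 89.8% of its counts on the reverse strand, Slc25a37 had 73.7%, and Bpifa2 had 1.99%. The leading reverse tag of Ggta1, with 2314 of its 2371 reverse counts, lies 2 substitutions from a tag that the file assigns to repeats, with 48368 counts.

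The strands of an id mostly followed each other over the tissues. For the 3515 ids with at least 100 reverse and at least 100 sense counts, the Spearman correlation of reverse and sense levels over the 7 tissue means had a median of 0.893, with quartiles of 0.808 and 0.964. It was above 0.8 in 2664 ids (75.8%) and below 0 in 7 (0.199%). The same tissue led on both strands in 2522 ids (71.7%). Both levels come from the same libraries and share their depth, so these values are a description. Across ids, the mean levels of both strands correlated at 0.459. Where an id had 2 reverse tags with at least 100 counts each (476 ids), the levels of the tags correlated over the 14 libraries with a median of 0.827, and in 8 ids (1.68%) below 0. Ids that overlap a gene on the opposite strand in RefSeq had a median share of 7.97% (2267 ids), against 7.46% in 5333 others.

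Reverse levels were then compared between tissues. Sense and reverse sums of each id entered 1 table of 20925 features that passed edgeR's filter on low counts. Of the 20100 reverse ids, 6320 passed, so the ids counted next are the more abundant ones. In edgeR's quasi-likelihood test, the reference for each tissue was the mean of the other 6 tissues on the log scale. Tissues near 0 pull this reference down, so a level called higher need not lie above the average level of the others. Amy1, for example, was called higher in liver at a mean of 7.78 reverse CPM, with 4345 CPM in parotid gland. A call needed an adjusted p (Benjamini-Hochberg over the table) under 0.05 and a change of at least 2-fold. Since all these comparisons share libraries, they are not independent of each other. Reverse ids were called most often in hippocampus, 2281 higher and 299 lower, and in spinal cord, 2362 higher and 175 lower. Over all features of the table, 41.3% were called in hippocampus and 37.7% in spinal cord. Bone marrow had 1152 higher and 344 lower (background 31.3%), and liver 1062 and 256 (26.9%). Stomach had 431 higher and 221 lower (19.7%), parotid gland 379 and 77 (13%), and pancreas 193 and 53 (7.83%). Of the 6320 reverse ids, 40.1% were thus called in spinal cord and 40.8% in hippocampus, 23.7% in bone marrow, 20.9% in liver, 10.3% in stomach, 7.22% in parotid gland and 3.89% in pancreas. The whole table holds the reverse ids too, and the difference between these shares was not tested.

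Counted as higher alone, 29.7% of all features were called in hippocampus, 29.4% in spinal cord, 19.5% in bone marrow, 18.6% in liver, 16.9% in stomach, 10.1% in parotid gland and 5.16% in pancreas. With limma voom in place of edgeR, lower calls were in the majority among reverse ids in bone marrow (993 higher and 2121 lower), liver (982 and 1892), stomach (340 and 1730) and parotid gland (350 and 1117). An id that passed the filter on low counts only through the libraries of 1 tissue had to stand high there. The numbers of list members called in their own tissue, given with the genes that follow, are therefore descriptions. They come with the number that passed through that tissue alone.

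The fitted change of all features had a median of 0.26 on the log2 scale in hippocampus and 0.38 in spinal cord, and of the reverse features 0.82 and 0.96. In pancreas these medians were -0.81 and -1.46, and in stomach 0.15 and -0.37. Scaling matters in pancreas and parotid gland, where a few genes fill the library. With library totals in place of the TMM scaling, the reverse calls were 71 higher and 3534 lower in pancreas, 182 and 667 in parotid gland, 4314 and 45 in hippocampus, 1815 and 198 in bone marrow and 590 and 112 in stomach. The median over all features moved to -3.22 in pancreas, -1.06 in parotid gland, 1.59 in hippocampus, 1.83 in spinal cord, 0.38 in bone marrow and 0.35 in stomach, so changes of ordinary size have no fixed sign in these tissues. A count of ids with both libraries above all 12 others does not rest on the test, but it still depends on how the libraries are scaled. It was 1315 in spinal cord, 931 in hippocampus, 665 in bone marrow, 584 in liver, 150 in stomach, 64 in parotid gland and 43 in pancreas. Of the 6320 reverse ids these are 20.8%, 14.7%, 10.5%, 9.24%, 2.37%, 1.01% and 0.680%, in that order. The same share over all features is not given here, so this order is not shown to be particular to reverse ids.

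**Figure D3:**
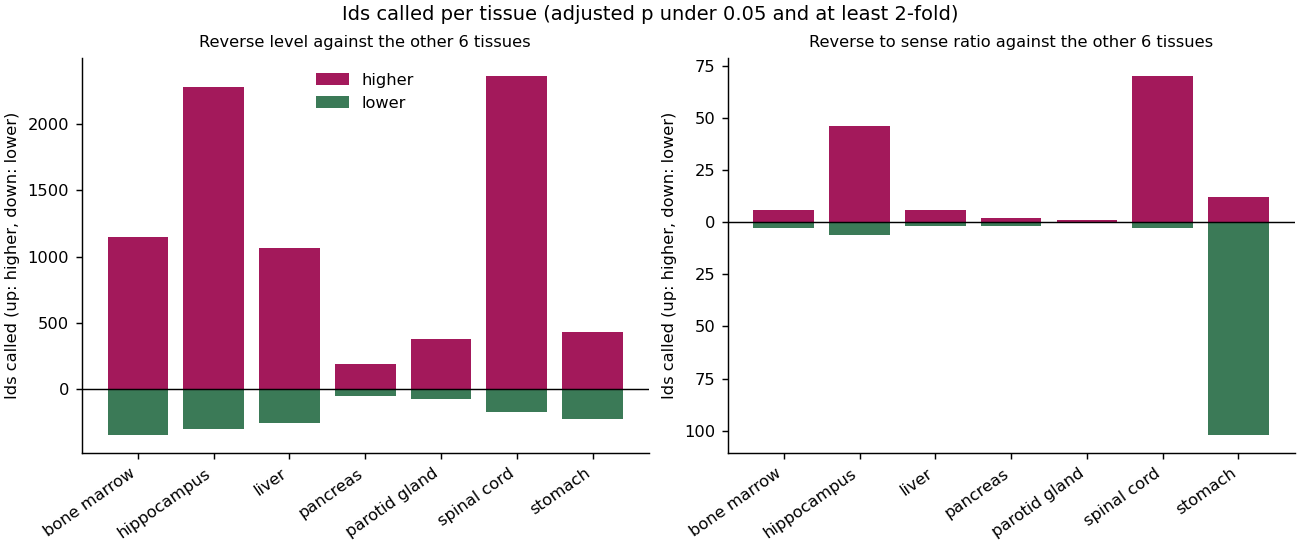
Number of ids called per tissue against the mean of the other 6 tissues on the log scale. The reverse level is on the left (6320 reverse ids tested) and the reverse to sense ratio on the right (1688 ids tested). Bars upward are higher and bars downward lower. Higher reverse levels prevail in every tissue with edgeR and TMM scaling, and lower ones prevail in pancreas and parotid gland with library totals, while the ratio has 102 lower calls in stomach and 70 higher calls in spinal cord.

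Secreted proteins of the salivary gland led the reverse counts. Bpifa2 had 22304 reverse counts in the female and 19312 in the male parotid library, and 4 counts over the 12 other libraries. That is 5810 ± 637 CPM (SD, n = 2) in parotid gland, under sense counts of 1061452 and 985939 (edgeR adjusted p = 5.55e-17). Smr3a had 15180 and 16727 reverse counts in parotid gland and at most 3 in any other library. Amy1 had 15251 and 15886, or 4345 ± 90.3 CPM, with 22 and 18 in liver, 11 and 10 in pancreas and 0 to 5 elsewhere. All 3 were high in both parotid libraries and nearly absent outside them. The id titled serine protease 32 (Mm.244143) had 9063 and 7151 reverse counts in parotid gland and 0 in the other 12 libraries, at least 23555-fold more than a floor of 3 counts over them, with 15.7% of its counts on the reverse strand. Of the 11 parotid secreted protein ids, 9 passed the filter, 7 of them only through parotid gland, and these 9 were called higher there. The median share of the 11 ids of the list was 3.88%, against 7.64% over all 13125 ids with at least 100 counts.

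The reverse strand of digestive enzymes was high in pancreas. Amylase 2 (Mm.331313) had 12498 and 8165 reverse counts in the female and male pancreas libraries, 62 and 84 in stomach and at most 3 elsewhere. The trypsinogen Prss2 had 8514 and 8443, with 30 and 9 in stomach and at most 2 elsewhere. The chymotrypsinogen Ctrb1 had 5700 and 6704, and the id matched to Cela2a (Mm.45316, but titled Chymotrypsin C) had 8478 and 8053. Colipase, Clps, an activator of pancreatic lipase, had 4731 and 3766 in pancreas and 2891 and 2012 in stomach, where its sense counts were even higher than in pancreas (215462 and 143027, against 97123 and 85118). All 15 pancreatic enzyme ids passed the filter, 6 of them only through pancreas, and were called higher there. In stomach, through which none of them passed alone, 11 were called higher. The sense level of their list was also high in stomach, but uneven over its ids, as given above. Its part in the stomach calls was not tested. Amylases, trypsinogens and elastases have close copies in the genome, so counts of single members are uncertain.

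In stomach itself, Pgc had reverse counts of 6349 (female) and 23503 (male), and 0 in the other 12 libraries. Set against a floor of 3 counts over those 12 libraries, its level was at least 30161-fold higher in the female library and at least 132839-fold higher in the male one. The male library was the higher one, as on the sense strand (194962 and 449983 counts). The pancreatic type phospholipase Pla2g1b had 1792 and 2170 reverse counts in stomach and 198 and 146 in pancreas. The id titled caspase 6, a protease of cell death, had 1586 and 2557 in stomach and at most 4 elsewhere, under 113759 and 132270 sense counts. The small proline-rich protein id Sprr2a1/Sprr2b, of the cornified envelope of squamous epithelium, had 932 and 677. Tff1, a mucosal trefoil peptide, had 470 and 135 reverse counts and 0 in the other 12 libraries. Of 7 gastric product ids 6 passed the filter and were called higher, but 5 of these passed through stomach alone. In parotid gland 1 of the 6 was called higher, and the reverse counts of the list summed to 977 CPM there, against 7725 ± 6364 CPM (SD, n = 2) in stomach.

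Liver had reverse tags of plasma proteins. Apoa1, the main protein of high density lipoprotein, had 2502 and 3535 reverse counts in liver and 148 and 94 in stomach, and at most 3 elsewhere. Apoc1 had 947 and 1163, at most 2 elsewhere, and a share of 28.7%. Apoc3 had 1152 and 937 in liver, with 27 and 27 in hippocampus and 27 and 19 in spinal cord. Its sense counts were 26 and 30 in hippocampus and 12123 and 9684 in liver, so the strands stood even in hippocampus and far apart in liver. Alb, albumin, had 3936 and 2931 reverse counts in liver and 5 elsewhere, all in stomach. Of the 15 plasma protein ids, 14 passed the filter, 9 of them only through liver, and these 14 were called higher there. The median share of the 15 ids of the list was 3.51%.

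Bone marrow showed reverse tags of red cell and neutrophil genes. The id of alpha globin (Mm.196110) had 1660 and 2137 reverse counts in bone marrow, 53 and 50 in spinal cord and at most 6 elsewhere, on sense counts of 317011 and 330896. Slc25a37 had 784 and 1262 reverse counts in bone marrow against 246 and 476 sense counts, and 1 to 62 reverse counts in other libraries (log2 difference of 5.53 ± 0.27 (SE), edgeR adjusted p = 5.72e-14). The reverse strand had more counts than the sense strand in 13 of 14 libraries. Ngp, a neutrophil granule protein, had 1109 and 1161, with 17 and 16 in spinal cord and 0 elsewhere, and the lysozyme Lyz2 had 395 and 417 and at most 12 elsewhere. The leading reverse tag of the alpha globin id, with 666 counts, was 1 substitution from a sense tag of the same id with 94486 counts. All 11 neutrophil granule ids and 7 of 8 erythroid ids passed the filter and were called higher, but 10 and 6 of them passed through bone marrow alone. The lists' median shares were low, 3.17% over 11 and 4.08% over 8 ids.

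Myelin genes had the highest reverse shares of the lists. Cldn11, a tight junction protein of myelin, had 1401 and 1424 reverse counts in spinal cord, 562 and 749 in hippocampus and 0 in the 10 other libraries, with a share of 37.0%. Mobp, another myelin protein, had 1135 and 1239, 390 and 435, and 1 count elsewhere, with a share of 31.3%. Mbp had 1322 and 1166 in spinal cord and 180 and 255 in hippocampus, with a share of 6.87%. The 9 myelin ids had a median share of 21.8%, from 3.13% to 37.0%, the highest median of the 13 lists, against 7.64% over all ids with at least 100 counts. All 9 were called higher in both tissues, and 1 of them passed the filter only through spinal cord. With DESeq2, Cldn11 and Mobp missed the threshold in spinal cord (adjusted p = 0.0528 and 0.0635).

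Among synaptic genes, Snap25, a protein of vesicle fusion, had 1075 and 1098 reverse counts in hippocampus and 944 and 944 in spinal cord, and 0 in the other 10 libraries. Its share was 26.4%. The calcium sensor of synaptic vesicles, Syt1, had 789 and 745 in hippocampus, 80 and 74 in spinal cord and at most 3 elsewhere, with a share of 30.3%. The neuropeptide processing enzyme Cpe had 776 and 930 in hippocampus and 273 and 371 in spinal cord, against at most 25 elsewhere. Gpm6a, a neuronal membrane glycoprotein, had 428 and 540 and 126 and 96 in these tissues, and Olfm1, a secreted neuronal glycoprotein, had 464 and 432 and 77 and 58. Of the 16 synaptic ids, 15 passed the filter, 2 of them only through hippocampus. All 15 were called higher in hippocampus and 13 in spinal cord, and the median share of the 16 ids was 9.21%.

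Hox genes, which set position along the body axis, were covered by 27 ids. Only 7 passed the filter, all of them through spinal cord alone, and these 7 were called higher there. Hoxc8 had 24 and 22 reverse counts there, 1 and 2 in stomach and 0 elsewhere, and the reverse strand held 53.8% of its counts. Hoxd9 had 12 and 17 in spinal cord and at most 2 elsewhere. The ids of Hoxb7 (titled Homeo box B8) and Hoxb8 had 21 and 27, and 14 and 29. Ribosomal protein ids behaved differently with the scaling. Of 13 ids, 10 were called higher in bone marrow, 8 lower in hippocampus, 6 lower in spinal cord and 6 higher in pancreas. Over all 20925 features, 19.5% were called higher in bone marrow and 5.16% in pancreas, and 2436 features were called lower in hippocampus and 1721 in spinal cord. With library totals 11 ribosomal ids were lower in pancreas and none higher. In hippocampus none was then lower and 2 were higher, and in spinal cord none was lower and 1 was higher. In parotid gland 2 higher calls gave way to 4 lower ones. Rpl5, with a share of 21.5%, had its highest reverse counts in bone marrow, 591 and 524, then 264 and 259 in hippocampus and 34 to 180 in the other libraries. Of 10 skeletal muscle ids, 4 passed the filter and were called higher in parotid gland, and 3 of them in spinal cord. Of 6 adipose ids, 3 passed and were called higher in parotid gland. In each list 1 id passed through parotid gland alone, and 1 muscle id through spinal cord alone. The sense levels of these lists, given above, moved with them, and their part in these calls was not tested. Fewer cells of a type and less RNA per cell cannot be told apart in tissue libraries.

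**Figure D4:**
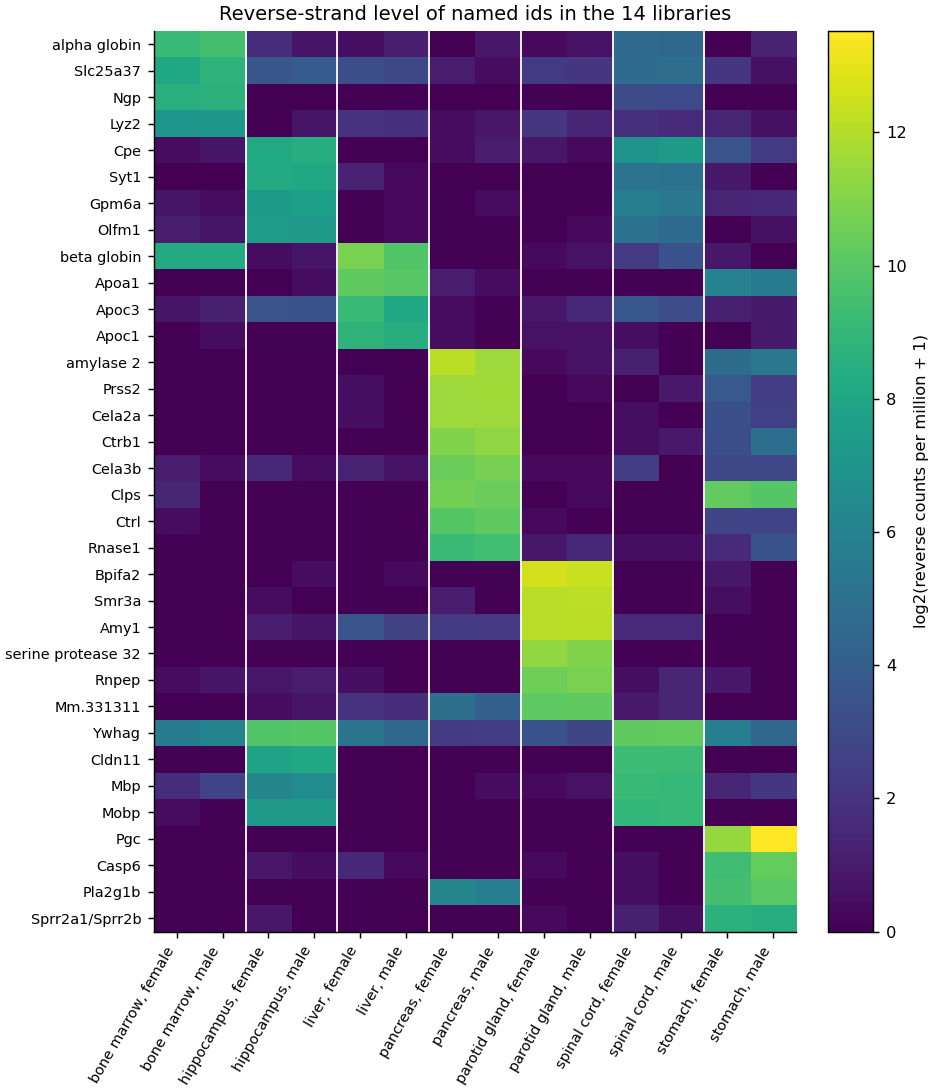
Reverse level of named ids in the 14 libraries, as log2 of reverse CPM + 1; rows are ids, ordered by their leading tissue, and columns are libraries. Most ids are bright in the 2 libraries of 1 tissue, the myelin and synaptic ids are bright in both hippocampus and spinal cord, and several pancreas ids show a weaker signal in stomach.

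A different question is whether the balance of strands within an id changes between tissues. It was tested over the 1688 ids of the fixed set, of 18652 with both strands, in a fit of edgeR with a term for each library, so that depth and scaling cancel. The ratio of reverse to sense counts was called higher in 70 ids and lower in 3 in spinal cord (4.32% of ids called), and higher in 46 and lower in 6 in hippocampus (3.08%). In stomach it was higher in 12 and lower in 102 (6.75%). Few ids were called in bone marrow (6 higher and 3 lower, 0.533%), liver (6 and 2, 0.474%), pancreas (2 and 2, 0.237%) and parotid gland (1 and 0, 0.0592%). The median log2 change of the ratio over all 1688 ids was 0.63 in spinal cord, 0.44 in hippocampus, 0.20 in bone marrow, -0.35 in pancreas and -0.50 in stomach.

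These counts rested heavily on single libraries. Spinal cord had 8 calls without its female and 13 without its male library, and hippocampus 12 and 5. Without the female stomach library, 313 ids were called in stomach, 231 in hippocampus and 271 in spinal cord, and without the male stomach library 254, 210 and 338. The female and male stomach libraries differed in their reverse share over this set, given above, more than those of any other tissue did.

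Ywhag had an even balance of strands in nervous tissue and mostly sense counts elsewhere. In the female and male libraries it had 2427 and 2723 reverse counts in hippocampus and 2675 and 2832 in spinal cord. The others were 145 and 192 in bone marrow, 133 and 44 in stomach, 76 and 79 in liver, 34 and 22 in parotid gland and 12 and 12 in pancreas. The nervous tissue libraries were far above the rest. Mean sense levels were also high there, 1180 CPM in hippocampus and 1100 CPM in spinal cord, against 454 CPM in bone marrow, 224 CPM in liver, 138 CPM in parotid gland and 95.1 CPM in pancreas, while stomach had 1908 CPM in the female and 314 CPM in the male library. The sense level was not called in hippocampus (log2 0.36, edgeR adjusted p = 0.545) or spinal cord (0.13, 0.893). The reverse share was 44.8% ± 0.127 (SD, n = 2) in hippocampus and 52.7% ± 5.99 in spinal cord, and 4.46% to 11.8% in the other tissues. The ratio rose by 2.85 ± 0.41 (SE) on the log2 scale in hippocampus (edgeR adjusted p = 2.37e-05) and by 3.38 ± 0.42 in spinal cord (1.87e-06). Both abundant reverse tags shown above, with 7157 and 4240 counts, had this pattern and correlated at 0.930 over the 14 libraries.

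Mapre2, a protein of growing microtubule ends, had its reverse counts mostly in nervous tissue, while its sense level was not called in either tissue (log2 -0.63, edgeR adjusted p = 0.104, in hippocampus, and -0.89, 0.0261, in spinal cord, short of a 2-fold change). Its reverse counts were 102 and 115 in hippocampus and 115 and 80 in spinal cord, and 0 to 13 in the other 10 libraries, none of which reached the nervous tissue values. The share was 3.99% ± 0.112 in hippocampus and 4.53% ± 1.22 in spinal cord (SD, n = 2), and at most 0.440% on average elsewhere. The ratio rose by 4.31 ± 0.54 (SE) and 4.51 ± 0.54 (edgeR adjusted p = 2.88e-06 and 1.87e-06). The id Mm.379341, without a title, had 423 and 373 reverse counts in hippocampus, 108 and 140 in spinal cord, and 5 to 62 elsewhere, with 77.7% ± 2.83 of its counts on the reverse strand in hippocampus.

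Camk2b, the beta subunit of a calcium-dependent kinase of synapses, went the other way. Its reverse counts were 48 and 90 in hippocampus, 26 and 23 in spinal cord, 18 and 29 in liver and 3 to 17 in the other libraries. Sense counts were 896 and 952 in hippocampus and 217 and 227 in spinal cord, and at most 58 elsewhere. The reverse share was therefore 6.86% in hippocampus and 9.95% in spinal cord, and 61.6% in stomach, where only 8 and 9 sense counts were seen. The ratio fell by 2.63 on the log2 scale in hippocampus (SE 0.38, edgeR adjusted p = 2.37e-05).

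In parotid gland and pancreas, a few ids had reverse tags without sense counts to match. Rnpep had 5272 and 6315 reverse counts in parotid gland and 16 in all other libraries together. Its sense counts in parotid gland were 23 and 29, within the range of 1 to 216 of the other libraries. The reverse level differed by 13.48 ± 0.37 (SE, log2, edgeR adjusted p = 1.39e-17), and the sense level by 0.48 (0.612), so this parotid change was called on the reverse strand and not on the sense strand; the difference between the strands was not tested, as the id lacked the counts for the ratio fit. The id matched to Cela3b by accession (Mm.379144, without a title) had 4148 and 4693 reverse counts in pancreas and 0 to 16 elsewhere. It had 26 and 32 sense counts in pancreas, so that 99.3% of its counts were on the reverse strand. Whether sense tags of this gene stand under another id was not tested. The id Mm.331311, without a title, had 4076 and 4337 reverse counts and 0 sense counts in parotid gland. In pancreas it had 82 and 45 reverse and 221 and 168 sense counts.

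Gsn, gelsolin, which severs actin filaments, was the 1 id with a called ratio in parotid gland. It had 253 and 344 reverse counts there and 1 to 42 elsewhere, and 298 and 316 sense counts, so the share was 49.0% ± 4.39 (SD, n = 2). The ratio rose by 3.15 ± 0.43 (SE, edgeR adjusted p = 3.62e-05), a call lost without the male parotid library and with limma (adjusted p up to 0.155). Its leading reverse tag was seen in parotid gland only, with 215 and 305 counts, while the second tag had 20 and 24 there and up to 32 in other libraries. In pancreas, 1810030O07Rik had 202 and 225 reverse counts against 4 and 5 sense counts, a ratio higher by 6.72 ± 0.52 (SE, edgeR adjusted p = 3.14e-11). Its leading reverse tag, with 200 and 222 counts in pancreas, 5 and 2 in stomach and 0 elsewhere, lies close in sequence to the leading sense tag of Prss2, with the differing bases in capitals.
1810030O07Rik reverse: gatctgtgttggcttccCAg
Prss2 sense: gatctgtgttggcttccTGg
The Prss2 tag had 507115 counts and 2 substitutions from the reverse tag. A sense tag of the id Mm.333022 with 363005 counts was 1 substitution away. The second reverse tag of 1810030O07Rik, with 202 counts, had 1 and 3 in pancreas and 34 and 45 in bone marrow. Of 96 named ids, 4 had a leading reverse tag within 2 substitutions of a tag at least 10 times as abundant.

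Beta globin (Mm.288567) had its highest reverse level in liver and its highest sense level in bone marrow. Reverse counts were 867 and 873 in bone marrow, 3783 and 3190 in liver, 9 and 22 in spinal cord and 0 to 2 elsewhere. Sense counts were 678185 and 628614 in bone marrow, 1104 and 1940 in liver and 9275 and 9236 in spinal cord. The ratio in liver was higher by 11.28 ± 0.91 on the log2 scale (SE, edgeR adjusted p = 1.44e-10). The tag shown above held 6973 of these counts, 3782 and 3189 of them in liver, 2 in the female stomach library and 0 in bone marrow. The second reverse tag had 454 counts, 196 and 248 in bone marrow and 0 in liver. The tags of this id thus had opposite tissues, with a correlation of -0.322 over the libraries. Globin genes have close copies, and counts of a single copy are uncertain. This id had 69.8% ± 10.8 (SD, n = 2) of its liver counts on the reverse strand, against 0.133% in bone marrow. Alb had a higher ratio in liver too (log2 6.66 ± 0.95 (SE), edgeR adjusted p = 6.62e-05): its sense counts outside liver were 80 to 1791, with 0 reverse counts in 10 of those 12 libraries.

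**Figure D5:**
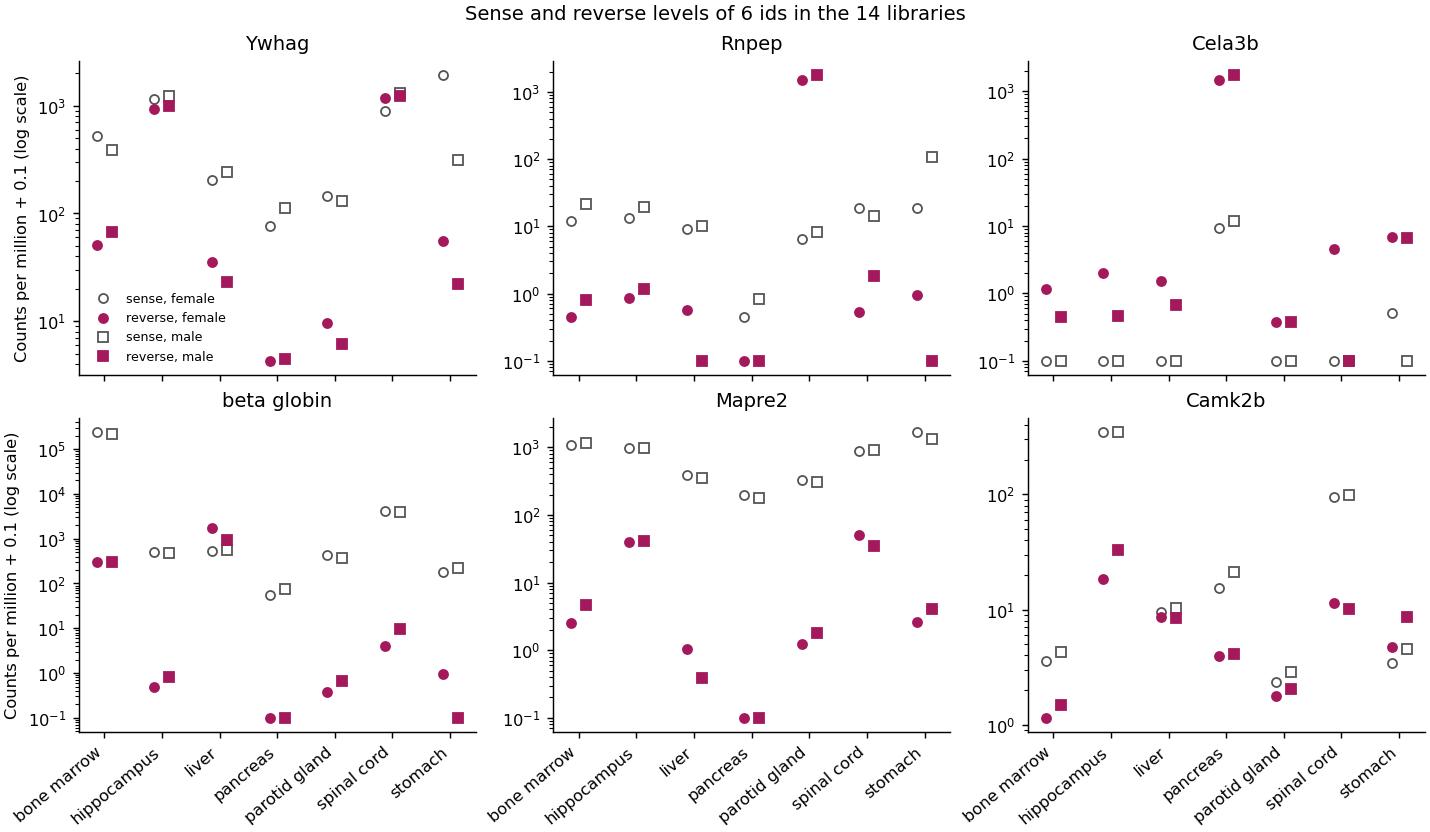
Sense (open) and reverse (filled) levels of Ywhag, Rnpep, Cela3b, beta globin, Mapre2 and Camk2b in the 14 libraries, as CPM + 0.1 on a log axis; circles are female and squares male libraries. For Ywhag the strands lie close together in hippocampus and spinal cord, and the sense strand lies above the reverse strand elsewhere. Mapre2 has its highest reverse levels in the same tissues, but below its sense levels. The reverse strand lies above the sense strand in parotid gland for Rnpep, in pancreas for Cela3b and in liver for beta globin.

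Other ids had ratio calls of smaller size or on fewer counts. In bone marrow, Nsun2, an RNA methyltransferase, had 79 and 58 reverse against 86 and 82 sense counts, a ratio higher by 2.79 ± 0.39 (SE, edgeR adjusted p = 2.82e-05). The id of Fam89b/Znrd2 had 46 and 62 reverse counts in bone marrow and 0 to 8 elsewhere. In liver, the id titled T-complex protein 1 (Mm.32019), a subunit of a chaperonin, had 80 and 150 reverse counts and 0 to 19 elsewhere, with a share of 23.4% ± 7.05 (SD, n = 2). In stomach, ratios were lower for diazepam binding inhibitor (Mm.2785), a carrier of acyl-CoA, by a log2 of -3.31, and for ribosomal protein L23 (Mm.140380), by -2.96. P4hb, a protein disulfide isomerase, fell by 2.70 in pancreas, where its sense counts were 1283 and 1329 and its reverse counts 20 and 12. The P4hb call was lost without the male pancreas library (adjusted p = 0.457). Ddah1, which breaks down methylarginines, fell by 1.86 in bone marrow, a call lost under 4 alternatives, among them without either bone marrow library and without the female pancreas library (adjusted p up to 0.538).

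Mafk, a small transcription factor, had 87 and 16 reverse counts in stomach, 15 and 12 in pancreas, 12 and 12 in liver, 7 and 9 in parotid gland and 0 to 2 in bone marrow, hippocampus and spinal cord. The named ids had 16 pairs with a tail-to-tail neighbour, a gene that ends toward them on the opposite strand in RefSeq. The Spearman correlation of the reverse level with the neighbour's sense level over the 14 libraries ran from -0.403 to 0.819 in these pairs, with a median of 0.366, and was below 0 in 5. It was above that with the id's own sense level in 2 pairs. Mafk and Tmem184a, chosen after the values were seen, gave 0.807, and Mafk's own sense level gave -0.213. For Cldn11, the tail-to-tail neighbour Slc7a14 gave 0.819 and its own sense strand 0.872, and for Ywhag and its neighbour Hspb1 these were 0.393 and 0.895. Libraries of a tissue are alike, so these correlations describe 7 tissues more than 14 libraries.

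Imprinted genes and loci with known antisense transcripts were covered by 27 ids, of which 24 had reverse counts, 13 had at least 20 and 10 passed the filter. Their median share was 8.63% over 16 ids with at least 100 counts. Snrpn/Snurf, an imprinted splicing gene of neurons, had 157 and 173 reverse counts in hippocampus and 129 and 144 in spinal cord, and 0 to 5 elsewhere, with sense counts that led in the same tissues. Ube3a, a ubiquitin ligase whose imprinted antisense partner Snhg14 overlaps it in RefSeq, had 51 and 44 in hippocampus, 40 and 28 in spinal cord and 0 to 9 elsewhere. Its reverse level was higher by 2.82 ± 0.52 (SE, log2) in hippocampus (edgeR adjusted p = 0.000101) and by 2.37 ± 0.57 in spinal cord (0.00167), while the sense level was not called (0.37, adjusted p = 0.336, and 0.13, adjusted p = 0.799). The ratio of Ube3a was not tested, since pancreas gave too few counts. Of the 10 ids, 5 were called higher in hippocampus and 7 in spinal cord, against 29.7% and 29.4% of all features. Among the 6320 reverse ids, where higher calls were more frequent, 2281 were higher in hippocampus and 2362 in spinal cord. Of the 10 ids, 3 passed the filter only through hippocampus and 3 only through spinal cord. Of the 7 that also passed without hippocampus, 2 were called higher there. Of the 7 that also passed without spinal cord, 5 were called higher there. Bdnf, a neurotrophin, had 16 and 15 reverse counts in hippocampus, 6 and 4 in spinal cord and 0 elsewhere. The growth factor Igf2 had 10 and 8, and 8 and 11, and 1 count elsewhere. Hif1a, a regulator of the response to low oxygen, had reverse counts in all 14 libraries, from 1 to 60, and a share of 27.8%.

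Between the sexes, 4 reverse ids passed an adjusted p of 0.05, 3 higher in males and 1 higher in females, where 0.0908% of all features passed. Ddx3y, a Y-linked RNA helicase, had, in males, 66 reverse counts in hippocampus, 47 in spinal cord, 38 in bone marrow, 22 in liver, 12 in parotid gland, 5 in stomach and 4 in pancreas. Females had 0, apart from 1 count in spinal cord. The id titled inactive X specific transcripts (Mm.274770) had, in females, 13 in liver, 13 in spinal cord, 12 in bone marrow, 11 each in hippocampus and stomach, 3 in parotid gland and 1 in pancreas, and 0 in all males. Its sense counts were 0 to 3 in males except in the male pancreas, with 554, against 370 in the female pancreas. The id of major urinary protein 1 (Mm.377955) differed in liver, with reverse counts of 64 (female) and 2232 (male), on 103184 and 637889 sense counts, and at most 2 elsewhere. Its call rests on liver, where the lobe named in the titles and the sex cannot be told apart, and it was lost without either liver library, with DESeq2 and with limma voom (adjusted p up to 1). Where a tissue or sex is at 0, the fitted difference depends on the prior count of the fit. The log2 difference of male over female was 6.66 for Ddx3y, -6.25 for the X-inactivation id and 4.62 for the urinary protein (edgeR adjusted p = 1.62e-07, 0.00227 and 0.00111). The untitled id Mm.380197 had 1 to 13 counts in the males and 0 in the females (log2 5.43, adjusted p = 0.049), and lost its call under 14 of 21 alternatives. No ratio passed for sex (0% of 1688 ids by edgeR or limma, and 65 at an unadjusted p under 0.05).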

How the data were processed

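Each of the 14 libraries is a table of distinct 20-base tags with their raw counts, deposited by the authors without normalization, a gene assignment and a class code. Per the labels, mRNA was reverse transcribed, the cDNA was cut with DpnII, and the bases beside the site nearest the 3′ end were captured with MmeI and sequenced. For the aligner, the genome, the UniGene build and the meaning of the codes: not given in the sources used here. Library totals ran from 2194028 to 3834568 counts, of which 77280 to 236261 were reverse counts. Tags are PCR products, so intervals and floors (3 counts) cover counting error only.

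Counts of codes 11 to 16 (reverse) and 1 to 4 (sense) were summed per UniGene id. A single RefSeq symbol was found for 12020 of the 20100 ids, several for 59 and none for 8021, which keep their title or id; symbols come from accessions, and 77.8% of reverse counts are in ids with a symbol. Genes that share tags with close copies are uncertain.

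Levels were tested with edgeR 4.0.16 in R 4.3.3 (TMM, filterByExpr by tissue, quasi-likelihood F test) on 1 table of sense sums, mitochondrial ones included, and reverse sums, with terms for tissue and sex and 6 residual degrees of freedom. Ratios were tested in paired columns of both strands with 1 coefficient per library, over ids with at least 10 counts in each library and 20 reverse counts in all. Calls needed an adjusted p under 0.05 and a 2-fold change (no fold for sex). The pairing of libraries is the tissue, with 1 female and 1 male each, so the sex term acts as the replicate block. Alternatives were DESeq2 1.42.0, limma 3.58.1 (voom, or log2 ratios with a pseudocount of 0.5), other scalings, filters and code sets, and leaving out each library. The fits were tested on simulated data. Tables and exact permutation tests used Python 3.11.15, pandas 2.3.3, numpy 2.4.6 and SciPy 1.17.1, and plots matplotlib 3.10.9.

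Named ids are the 12 with the highest mean reverse CPM, up to 4 per tissue with the smallest p among those called higher with both libraries above the 12 others, up to 2 per tissue and direction for the ratio, up to 6 per direction for sex, members of the imprinted and antisense list with at least 20 reverse counts, and from each other list the 2 members with the most reverse counts and the 2 with the highest share. Hspb1, Tmem184a, Slc7a14 and the tags with TTTATT were chosen after their values were seen. The members and lists were chosen with earlier results of these data known. Sequences come from the deposited tags. A gene withheld for evaluation is not reported here.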

Additional observations from a re-analysis of the deposited data

Results flagged for a closer look

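Mitochondrial reverse tags stand outside the gene comparisons. The 34 tags of codes 11 to 16 on mitochondrial DNA held 350894 counts, above the limit that a count of 0 allows, and were flagged because no comparison used them. They made up 1.96% of all counts in hippocampus and 1.64% in spinal cord. The share was 0.712% in liver, 0.448% in stomach, 0.347% in bone marrow, 0.191% in parotid gland and 0.0507% in pancreas. Of the sense and reverse mitochondrial counts of a library they took 4.74% in the female stomach, the lowest, and 12.7% in the male spinal cord, the highest. The male stomach library had 10.6%. Their relation to the reverse tags of nuclear genes was not tested.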

How the results depend on the processing

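The difference between tissues in reverse share kept its direction and its side of the threshold under all 5 alternatives run. The male minus female difference of the share turned from -0.236 to 0.109 points as a share of all counts (exact sign-flip permutation test, p = 0.625). Counts of reverse level calls moved by over 1.5 times with limma voom to 3114 in bone marrow, 2874 in liver, 1654 in pancreas, 1467 in parotid gland and 2070 in stomach, with lower calls in the majority in all of these except pancreas. With library totals they moved to 4359 in hippocampus, 3605 in pancreas, 849 in parotid gland and 4825 in spinal cord. For sex, 19 reverse ids were called without the filter, and 2 each with DESeq2, limma voom and codes 11 to 14 only. Counts of ratio calls were 21 in bone marrow, 95 in hippocampus, 3 in parotid gland and 113 in spinal cord with a minimum of 5 counts per library, and 4, 34 and 0 in the first 3 of these with a minimum of 20. With limma on log2 ratios they were 8 in hippocampus, 51 in pancreas, 0 in parotid gland and 6 in spinal cord. With codes 11 to 14 only they were 34 in hippocampus and 45 in spinal cord, and with forward codes 1 to 6 the parotid gland had 3.

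Leaving out each library in turn gave 1018 to 1898 level calls in bone marrow, 1815 to 3125 in hippocampus, 980 to 1750 in liver, 119 to 337 in pancreas, 234 to 715 in parotid gland, 1695 to 3173 in spinal cord, 631 to 904 in stomach and 4 to 31 for sex. It gave 2 to 61 ratio calls in bone marrow, 5 to 231 in hippocampus, 4 to 65 in liver, 1 to 28 in pancreas, 0 to 37 in parotid gland, 8 to 338 in spinal cord, 66 to 313 in stomach and 0 to 0 for sex. In these fits the lone library of a tissue is assumed to vary like the others. Without the replicate block of sex, the ratio had 54 calls in hippocampus, 76 in spinal cord and 128 in stomach, and no call count moved by over 1.5 times. Of 57 named calls, 41 held under every alternative run, 16 were lost under at least 1 and none changed sign; the cause of these losses was not tested. With 2 libraries a tissue, and 28009 reverse tags of 1 count, depth limits the ratio test to 1688 of 18652 ids.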
